A study of Mus musculus with 34 samples.

Results

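Broad H3K4me3 domains are stretches of several kilobases over which histone H3 carries trimethylated lysine 4. Here they were taken from the deposited peak lists of the 4 FGR libraries of this mark. In each list, peaks separated by at most 500 bp were joined, the 4 joined sets were intersected base by base, and intersected intervals of 4 kb or more were kept. This gave 546 domains, or 1.83% of the 29875 intervals shared by the 4 libraries, and they held 9.66% of the bases of those intervals. The domains were thus chosen by FGR H3K4me3 coverage, so the coverage of this mark in FGR, and its difference from Ctrl, is a description without a test.

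The libraries came from microglia of the mouse hippocampus and were prepared by ULI-NChIP-seq, in which native, unfixed chromatin of few cells is precipitated with an antibody to a histone mark. All animals carried the reporter genotype Tmem119-tdTomato+/-, in which a microglial gene drives a red fluorescent protein. The group named Ctrl in the labels was compared with the group named FGR, in a series about restricted growth in the uterus, with 4 libraries per group for each of H3K4me3, H3K9ac, H3K27ac and H3K9me3. The labels give an age of 3 weeks after birth for replicates 1 to 3 and no age for replicate 4, and they do not say whether replicates are separate animals or pools, so the p-values speak only of how far these libraries differ from one another, perhaps for technical reasons.

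H3K4me3 is placed by methyltransferase complexes at the starts of active genes, and most such peaks are short. Unusually broad stretches of it are known to mark genes that define a cell type. Active promoters and enhancers carry the acetylation marks H3K9ac and H3K27ac. Heterochromatin carries H3K9me3. In microglia, identity genes include the transcription factor gene Sall1, the fractalkine receptor gene Cx3cr1 and the purinergic receptor gene P2ry12.

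Coverage below is the percent of the bases of a domain that lie under called peaks of a library, and it measures the extent of calling, not the height of the signal. Sequencing depth is unknown. The Ctrl H3K4me3 lists held 16598 to 18391 peaks and the FGR lists 43175 to 49045, and their narrowest peaks were 275 to 280 bp and 148 to 150 bp wide. For H3K9ac the narrowest peaks were 262 to 271 bp wide in Ctrl against 252 to 260 bp in FGR. For H3K27ac they were 267 to 284 bp wide in Ctrl against 148 to 151 bp in FGR. The part of these differences in the results below was not tested beyond the alternatives named there.

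The FGR libraries of H3K4me3 and H3K9ac were also set against the labels. Over 176235 regions called in any library of the 3 marks H3K4me3, H3K9ac and H3K27ac, the coverage of FGR H3K4me3 libraries correlated with that of Ctrl H3K4me3 libraries at a mean r of 0.647 and with that of Ctrl H3K9ac libraries at 0.561. FGR H3K9ac libraries correlated with Ctrl H3K9ac at 0.0839, with Ctrl H3K4me3 at 0.212, and with each other at 0.209. Values differed over the 19506 shared FGR H3K4me3 intervals of at least 500 bp. There FGR H3K9ac libraries correlated with each other at 0.849 and with Ctrl H3K9ac at 0.0508. Ctrl H3K4me3 correlated there with FGR H3K9ac at 0.317 and with FGR H3K4me3, the mark that chose the intervals, at 0.236. FGR H3K4me3 and Ctrl H3K9ac stood at 0.0353. These correlations are across regions that share neighbours and are given as a description. The labels are kept as deposited, and whether libraries of these marks were exchanged in FGR was not tested.

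The promoters of 4 genes with long domains are shown first, because the domains took in starts that differ widely in CpG content. Each is 250 bases before to 50 bases after a gene start, from the RefSeq promoter table of GRCm38.p6, 5′ to 3′ on the strand of the gene, with each CG in capitals. Where a gene has several listed starts in the domain, the one with the most CG is shown, and these genes were chosen after their values were seen. Sall1 (chr8:89042813-89043112, minus strand) and Psap (chr10:60277378-60277677, plus strand) held 39 and 23 CG. Cx3cr1 (chr9:120068247-120068546, minus strand) and P2ry12 (chr3:59262936-59263235, minus strand) held 5 and 4.
Sall1: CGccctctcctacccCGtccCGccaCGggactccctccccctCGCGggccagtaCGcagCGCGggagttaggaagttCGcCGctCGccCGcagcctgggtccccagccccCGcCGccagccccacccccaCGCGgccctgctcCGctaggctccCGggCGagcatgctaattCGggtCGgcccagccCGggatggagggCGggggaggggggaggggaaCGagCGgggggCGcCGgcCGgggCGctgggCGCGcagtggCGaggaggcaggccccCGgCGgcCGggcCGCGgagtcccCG
Psap: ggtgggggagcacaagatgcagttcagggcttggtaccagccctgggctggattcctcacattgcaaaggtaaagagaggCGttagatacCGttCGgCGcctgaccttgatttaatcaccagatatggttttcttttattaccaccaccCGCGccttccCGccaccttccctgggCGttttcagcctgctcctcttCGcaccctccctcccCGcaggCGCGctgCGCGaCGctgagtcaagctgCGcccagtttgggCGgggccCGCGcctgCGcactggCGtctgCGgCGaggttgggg
Cx3cr1: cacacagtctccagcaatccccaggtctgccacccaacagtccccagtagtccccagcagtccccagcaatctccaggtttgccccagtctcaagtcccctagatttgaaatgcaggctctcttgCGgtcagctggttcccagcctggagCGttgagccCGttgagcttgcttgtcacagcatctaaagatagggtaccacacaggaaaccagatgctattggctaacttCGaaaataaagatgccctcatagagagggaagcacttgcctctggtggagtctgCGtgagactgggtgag
P2ry12: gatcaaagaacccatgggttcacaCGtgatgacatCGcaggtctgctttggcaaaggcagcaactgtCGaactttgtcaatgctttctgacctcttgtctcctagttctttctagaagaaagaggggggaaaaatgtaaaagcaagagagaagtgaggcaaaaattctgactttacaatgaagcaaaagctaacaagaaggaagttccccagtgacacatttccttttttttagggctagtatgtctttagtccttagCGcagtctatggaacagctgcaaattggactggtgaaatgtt

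In all, 72.2% of the 406 coding genes with a start in a domain had an observed to expected CpG ratio above 0.6 in this window. The share was 80.0% for the 8615 genes with a start in a shorter shared interval of at least 500 bp and 48.3% for all 17492 coding genes of the table. The sequence GAGGAAGT on either strand, a site type of PU.1, the lineage factor of microglia and other myeloid cells, was found at 5.67% of domain starts (23 of 406), 2.95% of starts in shorter intervals and 3.17% of all. GGGCGG, the GC box, was found at 69.2%, 69.3% and 46.3%, and TATAAA at 11.8%, 5.92% and 13.3%, also on either strand. For genes with several starts these shares use 1 start, inside a domain where there is one. A match describes these letters only.

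The PU.1 type sequence lay in promoters of 3 of the 12 longest domains, where those at Abi3 and Gngt2, at Maf and in Qk held no listed start. The share over all domain starts was 5.67%. They are shown with 20 bases on each side and the match, which reads ACTTCCTC where it lies on the other strand, in capitals, beside that of Ctss, a lysosomal protease gene of homeostatic microglia. The windows are chr3:105053146-105053193 on the minus strand for Cttnbp2nl, chr4:136893082-136893129 on the minus strand for C1qc, chr1:87620272-87620319 on the plus strand for Inpp5d and chr3:95526764-95526811 on the plus strand for Ctss. All are GRCm38.p6.
Cttnbp2nl: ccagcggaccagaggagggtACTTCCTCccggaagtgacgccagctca
C1qc: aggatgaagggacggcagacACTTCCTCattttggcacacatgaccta
Inpp5d: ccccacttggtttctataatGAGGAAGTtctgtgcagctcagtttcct
Ctss: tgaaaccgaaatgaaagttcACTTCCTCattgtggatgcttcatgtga

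The domains had a median length of 5.01 kb, with quartiles of 4.38 and 6.06 kb, and 15 reached 10 kb. They lay on 20 chromosomes, with 49 on chromosome 11, 45 on chromosome 7 and 11 on X. A domain was not always 1 called peak. Between 184 and 244 of the 546 were a single peak in a given FGR library, and the others were joined from neighbouring peaks. The highest fold enrichment of a peak in a domain, the authors' own value within each list, had medians of 27.5 to 28.5 in the FGR libraries, where all peaks had medians of 8.41 to 9.70. In the Ctrl H3K4me3 libraries the peaks inside the same domains had median top folds of 4.98 to 5.23 and all peaks 4.21 to 4.43. A top value per domain is set here against single peaks, so the measures are unlike.

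A coding gene start lay in 371 domains (67.9%). Another 19 held only a start of a noncoding gene, 67 held no listed start, and 89 were not classified because they lay on chromosome 18, for which the table has no starts, or held an end of a gene whose start it does not list. Of the domains with a coding start, 336 held 1 coding gene, 33 held 2, 1 held 3 and 1 held 5. Among the 531 domains outside chromosome 18, 73.4% held a listed start of any gene, against 73.1% of shared intervals of 2 to 4 kb, 62.5% of those of 1 to 2 kb and 20.8% of those of 0.5 to 1 kb. Length beyond 2 kb thus went with little change in this share.

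The longest domain, of 16.8 kb at chr3:105038669-105055434, took in the start of Cttnbp2nl, a gene of the CTTNBP2 N-terminal-like protein. The next were at Sall1 (14.6 kb, chr8:89033746-89048374), at Zeb2 (14.4 kb, chr2:45103765-45118174), for a zinc finger repressor, at Psap (13.2 kb, chr10:60277353-60290599), for the lysosomal protein prosaposin, and at Cx3cr1 (12.1 kb, chr9:120059426-120071523). Domains of 11.3 kb and 10.98 kb lay at gene ends of Abi3 and Gngt2 and of Maf, a transcription factor of macrophages. The remainder of the 12 longest were at Picalm (10.99 kb), for a clathrin assembly protein, in Qk (10.9 kb, beginning 0.515 kb from its start), for an RNA-binding protein, across the complement genes C1qb and C1qc (10.8 kb), at Zfp710 (10.6 kb) and at Inpp5d (10.4 kb), for the phosphatase SHIP1. The shared length varied between libraries by a median of 0.522 kb, measured as the range of the joined stretch over the 4 FGR libraries.

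Around the length limit, the 3 shortest domains were a stretch near Ly6c1 of 4001 bp and those at Adap2 and Nab2 of 4008 bp each. The 3 longest intervals left out were at Lhx1 (3994 bp), Fscn1 (3995 bp) and Gfi1 (3997 bp). Ctrl H3K4me3 covered 23.2%, 61.4% and 41.5% of the former and 34.8%, 46.0% and 18.7% of the latter.

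**Figure D1:**
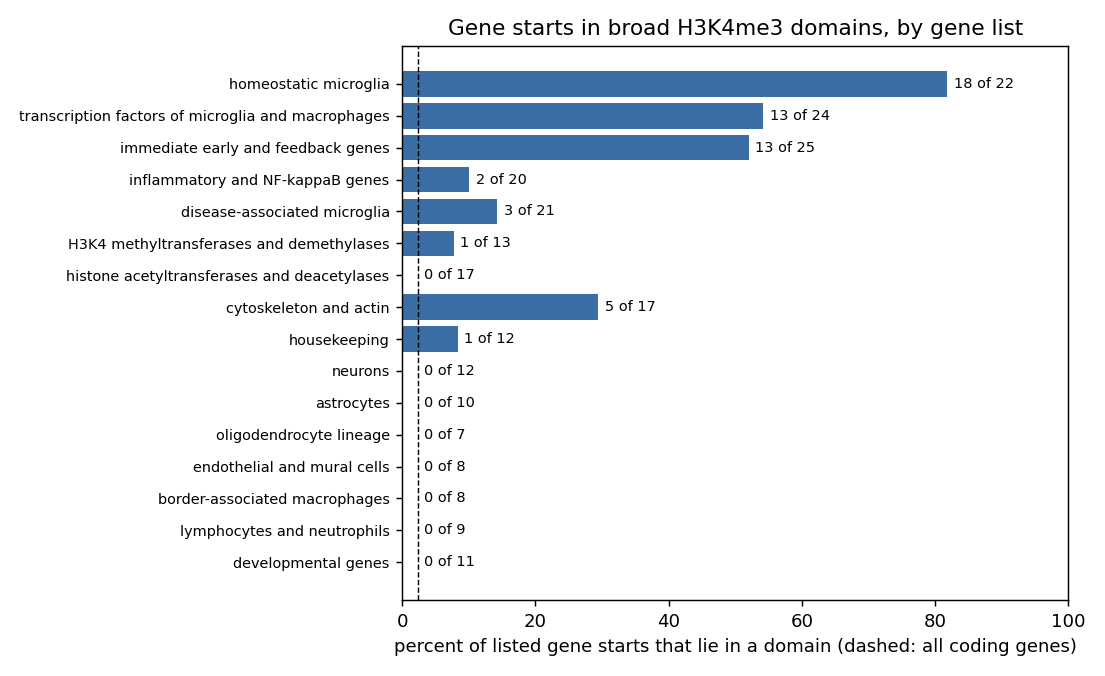
Percent of the listed genes with a start in the promoter table whose start lay in a broad H3K4me3 domain, by gene list (bars), with the numbers of genes beside each bar and the 2.32% of all coding genes as a dashed line. Homeostatic microglia genes stand at 81.8% and lists of other brain cell types at 0.

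Of 22 homeostatic microglia genes with a listed start, 18 (81.8%) had it in a domain, against 2.32% of all coding genes of the table. The longest were at Cx3cr1, at Fcrls (10.2 kb), an Fc receptor-like gene of microglia, at Lgmn (9.86 kb), for the lysosomal protease legumain, and at Tgfbr1 (8.51 kb), for a receptor of TGF-β. P2ry12 had 8.42 kb. Of 6 further genes of the list without a listed start, 4 had a gene end in a domain, among them Tmem119, the gene of the reporter, Csf1r, for the receptor on which microglia depend, and Tyrobp. The list was chosen with earlier results of these data known, and it is named for the cell type studied, so its share describes where the domains lie.

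Transcription factor genes of microglia and macrophages had 13 of 24 starts in a domain (54.2%), among them Sall1, Zeb2, the first of 2 domains at Mef2c (9.65 kb) and Irf8 (7.85 kb), an interferon-responsive factor needed by microglia. Gene ends of Spi1, which encodes PU.1, and of Maf, Fli1 and Smad7 also lay in domains. Immediate early and feedback genes, which respond within minutes to stimulation, had 13 of 25 starts in a domain (52.0%). Examples were Zfp36 (9.21 kb), for an mRNA-destabilising protein, Dusp6 (8.89 kb), for a MAP kinase phosphatase, and Sgk1 (8.47 kb), for a kinase induced by glucocorticoids.

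The shares were lower for cytoskeleton genes (5 of 17), disease-associated microglia genes (3 of 21), inflammatory and NF-κB genes (2 of 20), housekeeping genes (1 of 12) and H3K4 methyltransferases and demethylases (1 of 13). No start of the lists of histone acetyltransferases and deacetylases (17), developmental genes (11), border-associated macrophages (8), neurons (12), astrocytes (10), oligodendrocyte lineage (7), endothelial and mural cells (8) or lymphocytes and neutrophils (9) lay in a domain. Of the genes of these lists without a listed start, 1 had a gene end in a domain, the acetyltransferase gene Kat6a. Among all coding genes of the table the share was 2.32%, so a list of 7 to 17 starts would often have none in a domain. The lists without one are thus not set apart from coding genes at large. Of the homeostatic microglia starts, 18 of 22 lay in a domain.

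The same intervals in Ctrl carried shorter H3K4me3. The 4 Ctrl libraries covered 40.7%, 36.0%, 35.6% and 37.8% of the bases of the domains (37.5% ± 2.30, SD, n = 4), and the 4 FGR libraries 95.1%, 96.5%, 96.4% and 95.5% (95.9% ± 0.724, n = 4). With H3K4me3 lists cut to equal length by −log10 q, Ctrl covered 36.8% and FGR 87.2%. A peak of all 4 Ctrl libraries touched 519 domains, so the mark was called there in both groups over different extents. In mean length per domain, Ctrl peaks covered 2.08 ± 0.127 kb and FGR peaks 5.30 ± 0.0400 kb of 5.53 kb.

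The covered fraction in Ctrl was 37.2% ± 2.34 (n = 4) in the shared intervals of 500 bp to 4 kb, near that of the domains. It was 23.2% for intervals of 0.5 to 1 kb, 40.8% for those of 1 to 2 kb and 40.8% for those of 2 to 4 kb. The total length under Ctrl peaks, whether of 1 peak or several, thus rose in near proportion to interval length above 1 kb. Joined over the same gaps, the Ctrl lists held 16 to 29 stretches of 4 kb or more each and the FGR lists 687 to 839. By the full rule, Ctrl had 2 domains, at Dusp6 and on chromosome 18, and both overlapped FGR domains. When the 546 longest shared intervals of Ctrl were taken, which were 1.34 to 4.06 kb long, they overlapped 171 of the FGR domains (31.3%).

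Single domains varied widely around the Ctrl mean. The quartiles were 28.6% and 47.3%. At the highest end, Ctrl H3K4me3 covered 90.6% ± 7.29 of a domain at an end of Trib1, 81.7% ± 6.74 of one at an end of Myc, 75.2% ± 9.04 of that at Fgf9, 72.0% ± 11.5 of that at Egr2 and 71.0% ± 7.1 of that at Ifitm10 (n = 4 each). Trib1 encodes a pseudokinase, Myc a growth-related transcription factor, Fgf9 a fibroblast growth factor and Egr2 an immediate early transcription factor. At 4 domains no Ctrl library had an H3K4me3 peak. They lay in Cltc, the clathrin heavy chain gene, in Cotl1, for an actin-binding protein, in Vav1, for a signalling protein of blood cells, and in a gene on chromosome 18.

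The second Mef2c domain (chr13:83570947-83576283) was the lowest of those with a coding start. Its Ctrl libraries were listed at 0, 0, 0 and 5.73% and its FGR libraries at 85.3%, 96.0%, 95.0% and 95.4%. The first one, at the other start region of the gene, had 46.6% ± 4.43 in Ctrl. Tmsb4x, for the actin-binding thymosin β4, was also low, with 5.44%, 6.17%, 0 and 0 in Ctrl and 95.6% to 100% in FGR.

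**Figure D2:**
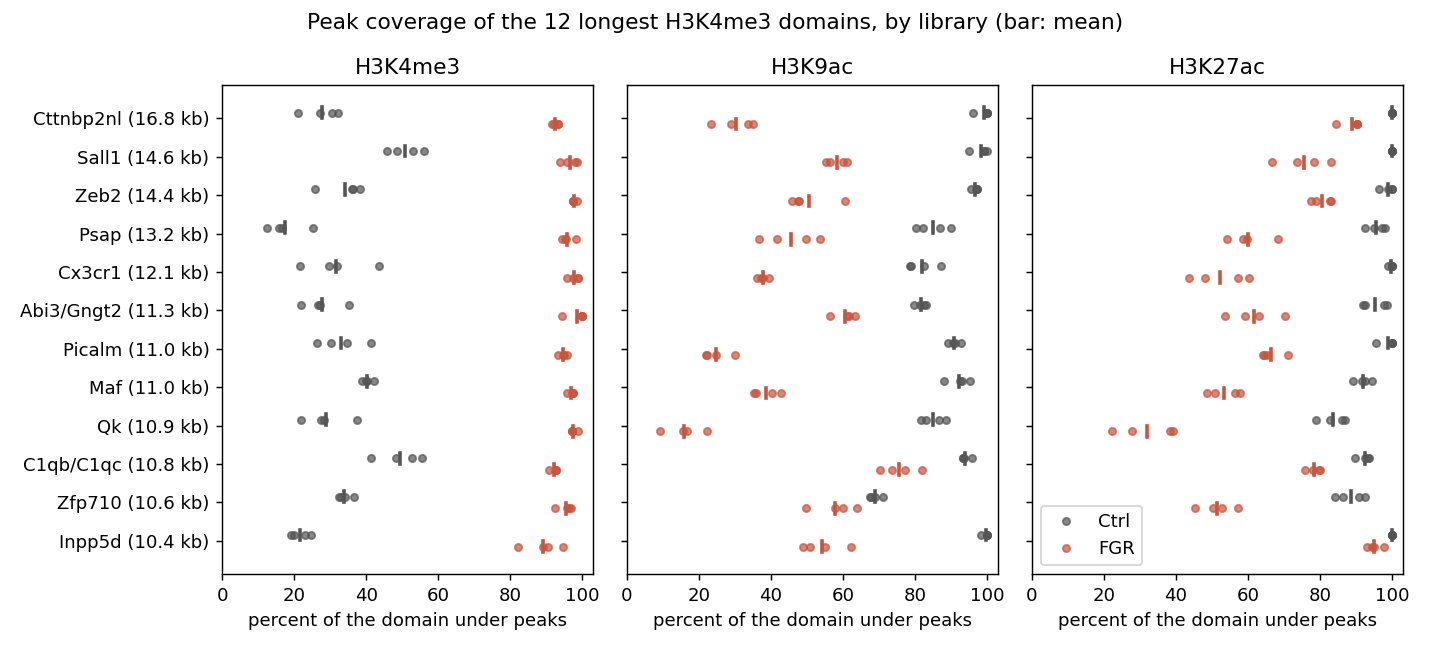
Percent of each of the 12 longest domains under called peaks in each library (points) with the group mean (bar), for H3K4me3, H3K9ac and H3K27ac. Ctrl and FGR points do not overlap for H3K9ac and H3K27ac at any of the 12 domains, with FGR lower, and FGR is higher for H3K4me3, the mark that chose the domains.

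H3K9ac was lower in FGR over most of the domains. The Ctrl libraries covered 87.4%, 87.6%, 87.6% and 87.5% of domain bases and the FGR libraries 57.2%, 58.8%, 55.7% and 53.0% (means 87.6% ± 0.0888 and 56.2% ± 2.45, n = 4 each). By limma with an adjusted p under 0.05, 423 of 546 domains were lower in FGR (77.5%), where 52.4% of all 19290 shared intervals tested were lower. Another 36 were higher (6.59%), where 14.1% of all intervals tested were higher, and 87 passed in neither direction. The median difference was −29.5 percentage points over the domains and −16.8 over all intervals tested. Ctrl coverage was 87.6% in the domains and 79.4% in the shorter shared intervals of 500 bp to 4 kb. The part of this starting level, and of interval length, in the shares of calls was not tested. Quantile normalization, which gives all libraries the same distribution of coverage, left 256 domains lower and 120 higher.

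P2ry12 had one of the larger falls among the named genes. Its domain was covered by 94.0%, 97.7%, 94.6% and 95.2% in Ctrl and by 25.1%, 18.4%, 21.2% and 21.0% in FGR, with no overlap. The difference was −74.0 points (SE 1.92, limma adjusted p = 5.88e-08). At Fcrls the Ctrl libraries had 88.8%, 79.8%, 82.6% and 90.3% and the FGR libraries 16.1%, 15.7%, 23.6% and 9.85% (limma adjusted p = 3.53e-06). H3K4me3 coverage in FGR, which chose the domains, was 91.8% to 96.5% at P2ry12 and 93.5% to 100% at Fcrls, against 17.6% ± 3.86 and 23.7% ± 10.1 (SD, n = 4 each) in Ctrl.

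At genes of transcription factors the values varied. The first Mef2c domain went from 95.2% ± 2.15 to 13.6% ± 5.63 and the second from 99.7% ± 0.646 to 12.1% ± 6.16 (n = 4 each; limma adjusted p = 5.01e-07 and 3.78e-07). Sall1, the second longest domain, had 94.9%, 100%, 99.2% and 99.1% in Ctrl and 61.0%, 60.1%, 56.3% and 55.4% in FGR (limma adjusted p = 4.83e-06). Irf8 did not pass the test, with 72.5% to 82.8% in Ctrl and 54.2% to 82.2% in FGR (limma adjusted p = 0.0858), since 1 FGR library lay in the Ctrl range.

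The domains of lowest p among those lower for H3K9ac included those at gene ends of Smap2 (99.1% ± 0.985 to 19.7% ± 1.69, n = 4) and of the peroxisomal transporter gene Abcd2 (99.0% ± 1.18 to 14.6% ± 3.77), and just downstream of the starts of Capza2 (95.5% ± 2.67 to 22.2% ± 1.3), for an actin capping protein, and Plek (97.3% ± 2.36 to 18.7% ± 2.52), for pleckstrin. The limma adjusted p-values of these 4 domains ran from 8.92e-09 to 5.81e-08. FGR and Ctrl libraries did not overlap at any of the 4.

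Of the 36 domains with more H3K9ac in FGR, 26 were lower for H3K27ac, 5 passed in neither direction, 1 was higher and 4 were not tested. They included several with little H3K27ac. Efna5, for an ephrin of axon guidance, had 38.2%, 44.9%, 32.1% and 32.0% in Ctrl and 78.3%, 89.1%, 85.3% and 73.5% in FGR (limma adjusted p = 9.45e-05), with H3K27ac coverage of 7.45% ± 0.443 and 2.76% ± 1.87. Hs3st3b1, for a heparan sulfate sulfotransferase, rose from 9.40% ± 6.48 to 64.1% ± 7.26, and the noncoding gene Crnde from 38.9% ± 3.54 to 77.2% ± 4.94 (n = 4 each; limma adjusted p = 4.51e-05 and 2.88e-05). A domain in Tchh, 1.39 kb from its start, was listed at 0 in Ctrl and had 59.5% ± 11.2 in FGR. Fgf9 rose from 24.8% ± 15.4 to 62.0% ± 4.76 (limma adjusted p = 0.00365), and Egr2 from 81.9% ± 9.07 to 96.9% ± 2.27 (limma adjusted p = 0.0190).

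One domain with more H3K9ac, at chr17:39843040-39848777, holds Rn18s-rs5, a pseudogene of 18S ribosomal RNA, whose sequence has many near-identical copies. Its values are therefore uncertain. It was under peaks of every mark in FGR, with H3K9ac at 1.35% ± 2.70 in Ctrl and 100% in all 4 FGR libraries, and H3K9me3 at 0 in Ctrl replicates 1 to 3 and 99.8%, 99.4% and 99.7% in those of FGR.

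H3K27ac was also lower in FGR over the domains. The Ctrl libraries covered 91.8%, 91.9%, 90.8% and 91.8% of domain bases and the FGR libraries 64.99%, 65.1%, 65.9% and 59.4% (means 91.6% ± 0.541 and 63.8% ± 3.00, n = 4 each). By limma, 509 of the 542 domains tested were lower (93.9%), where 66.4% of all 16464 intervals tested were lower. A single domain was higher, that of Rn18s-rs5, where 0.383% of all intervals were higher, and this call was lost without Ctrl replicate 1, 2 or 4 and without FGR replicate 1 or 3. The median difference was −27.3 points in the domains and −24.5 over all intervals tested. Ctrl coverage was 91.6% in the domains and 73.9% in the shorter shared intervals of 500 bp to 4 kb. The part of this starting level, and of interval length, in the shares of calls was not tested. The count of lower domains was 285 when neighbouring H3K27ac peaks within 500 bp were joined, and quantile normalization left 81 lower and 99 higher, so the direction over the domains depended on the scaling.

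Mertk, for a receptor that takes up dying cells, had H3K27ac coverage of 87.3%, 91.0%, 94.5% and 89.5% in Ctrl and 24.97%, 23.5%, 26.3% and 17.0% in FGR (limma adjusted p = 1.08e-05). Sgk1 had 95.0%, 97.4%, 96.6% and 96.8% in Ctrl and 34.0%, 36.3%, 40.9% and 32.3% in FGR (limma adjusted p = 1.18e-05). A domain 0.484 kb from the start of Irf2bp2, a transcriptional corepressor gene, went from 100% in all Ctrl libraries to 34.0% ± 3.92. In these 3 domains every FGR library was lower than every Ctrl library.

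Some domains with equally small p moved little. Arap1 went from 100% in Ctrl to 96.5% ± 0.214 (SE of the difference 0.146, limma adjusted p = 1e-05), and a stretch 91.0 kb from the start of Etfrf1 to 89.4% ± 0.725 (limma adjusted p = 8.50e-06). In both, all 4 Ctrl libraries were at 100%. P2ry12 also moved little, from 98.5% ± 1.77 to 91.9% ± 2.73 (n = 4, limma adjusted p = 0.00693). At an end of Tmem119, H3K27ac went from 93.5%, 100%, 90.9% and 100% to 35.3%, 17.2%, 15.4% and 15.9% (limma adjusted p = 5.11e-05). At Irf8, which did not pass for H3K9ac, it fell from 94.5% ± 1.57 to 44.9% ± 5.93 (limma adjusted p = 5.95e-05).

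Both acetylation marks were lower in FGR at 398 of the 542 domains tested for both (73.4%), where 40.9% of the 16399 intervals tested for both were. All 12 of the longest domains were lower for both, among them C1qb and C1qc, for subunits of the complement starter C1q, with H3K9ac at 94.0% ± 1.21 and 75.7% ± 5.01 and H3K27ac at 92.4% ± 1.80 and 78.5% ± 1.92. Quantile normalization turned the H3K9ac direction at 3 of the 12 and the H3K27ac direction at 7.

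**Figure D3:**
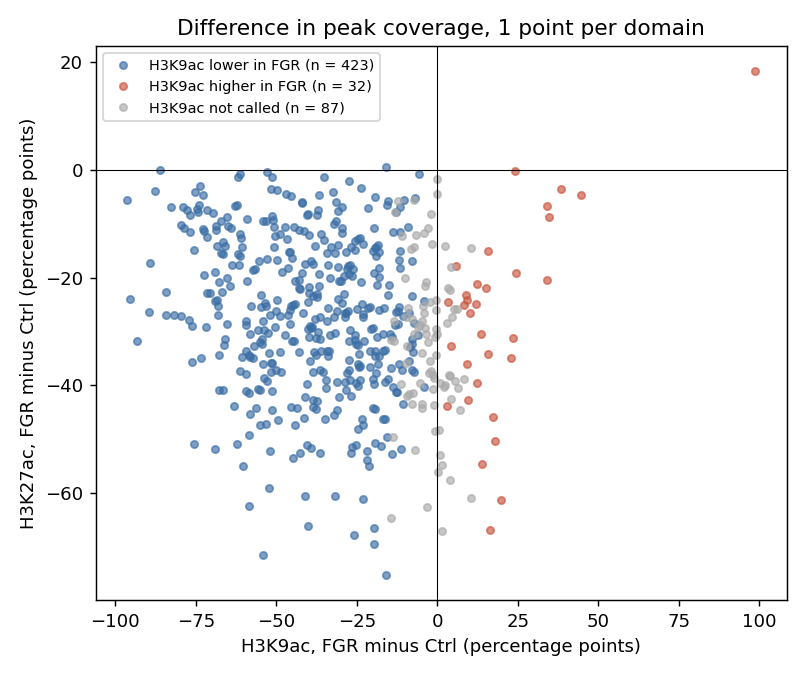
Difference in coverage between FGR and Ctrl (percentage points) for H3K9ac on the horizontal axis and H3K27ac on the vertical axis, 1 point for each domain tested for both, coloured by the H3K9ac call. Most points lie at negative values on both axes, and the point at the top right is the Rn18s-rs5 domain.

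By gene list, all 18 homeostatic microglia domains were lower for H3K9ac and 17 for H3K27ac, Olfml3 being the exception. Over all domains, 77.5% were lower and 6.59% higher for H3K9ac, and 93.9% of those tested were lower for H3K27ac. The H3K27ac counts of the lists below, and the H3K9ac count of the transcription factor domains, are near these shares. The median difference of the homeostatic microglia domains was −46.5 points for H3K9ac and −26.9 for H3K27ac, against −29.5 and −27.3 over all domains. Under quantile normalization, 12 of the 18 were lower for H3K9ac and none higher, while for H3K27ac 2 were lower and 2 higher. Of the 13 transcription factor domains, 10 were lower for H3K9ac and all for H3K27ac, against 6 lower and 3 higher, and 3 lower and 1 higher, under quantile normalization. Immediate early and feedback genes differed in their H3K9ac, with 8 lower, 2 higher and 3 that did not pass, and a median of −10.8 points, while all 13 were lower for H3K27ac. Quantile normalization gave 5 lower and 5 higher for H3K9ac and 3 lower and 3 higher for H3K27ac. Of the 5 cytoskeleton domains, 3 were lower for H3K9ac and 5 for H3K27ac, and 2 and 3 under quantile normalization, which also gave 2 higher for H3K9ac. The 2 immediate early genes higher in the test without quantile normalization were Egr2 and Fosl2, an AP-1 subunit gene (72.6% ± 8.53 to 85.0% ± 1.53, n = 4, limma adjusted p = 0.0359).

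Within that list, Sgk1 and Btg1, an antiproliferative gene, lost much H3K9ac coverage (95.4% ± 1.63 to 54.2% ± 3.62 and 89.5% ± 5.74 to 34.4% ± 5.93). Zfp36 and Junb changed less (100% to 90.9% ± 2.10 and 100% to 86.2% ± 2.45). Zfp36l1 had 93.6% ± 4.24 and 94.2% ± 2.2 and did not pass. Nfkbia, the inhibitor of NF-κB, and Rel, a subunit of it, were both lower for both marks, a call that quantile normalization ended for H3K27ac at both and for H3K9ac at 1 of the 2. Of the 3 disease-associated genes, B2m was lower for both, the cathepsin gene Ctsd only passed for H3K27ac, and its relative Ctsz passed for neither, with H3K9ac at 100% in all 8 libraries. Under quantile normalization the call of B2m ended for both marks, Ctsd and Ctsz were higher for H3K9ac, and for H3K27ac Ctsd was lower and Ctsz higher.

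The shorter shared intervals of 500 bp to 4 kb had H3K9ac coverage of 79.4% ± 0.555 in Ctrl and 63.1% ± 2.76 in FGR, and H3K27ac coverage of 73.9% ± 0.836 and 50.6% ± 2.89 (n = 4 each). In Ctrl, H3K9ac coverage rose with interval length from 69.2% at 0.5 to 1 kb to 87.6% in the domains. In FGR it was 51.2% at 0.5 to 1 kb, 66.9% at 1 to 2 kb, 65.1% at 2 to 4 kb and 56.2% in the domains. H3K27ac rose with length in both groups, from 60.5% to 91.6% in Ctrl and from 44.7% to 63.8% in FGR. The difference between these patterns was not tested.

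**Figure D4:**
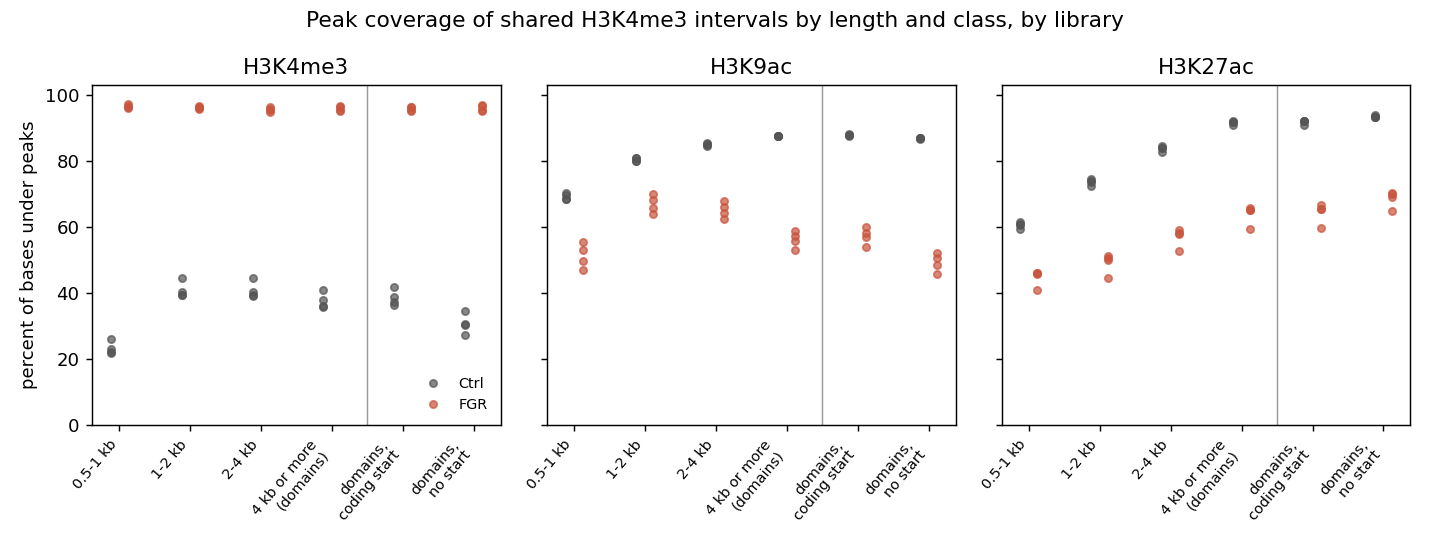
Percent of bases under called peaks in each library (points) for shared H3K4me3 intervals by length and, right of the vertical line, for domains with a coding start and without a start. FGR H3K9ac falls between the 2 to 4 kb intervals and the domains, while Ctrl H3K9ac and H3K27ac of both groups rise.

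Applied to the lists of the other marks, the same rule gave 628 stretches for Ctrl H3K9ac, which overlapped 62.3% of the H3K4me3 domains (54.5% of their own number), and 2210 for Ctrl H3K27ac, which overlapped 81.0% (19.9%). It gave 161 for FGR H3K9ac, which overlapped 17.0% (58.4%), and 548 for FGR H3K27ac, which overlapped 28.4% (28.6%). When the 546 longest intervals of each group were taken, Ctrl H3K9ac overlapped 308 of the domains (56.4%), Ctrl H3K27ac 205 (37.5%), FGR H3K9ac 182 (33.3%), Ctrl H3K4me3 171 (31.3%) and FGR H3K27ac 155 (28.4%). These longest intervals differed in median length, which was 5.28 kb for Ctrl H3K9ac, 9.62 kb for Ctrl H3K27ac, 3.47 kb for FGR H3K9ac, 1.61 kb for Ctrl H3K4me3 and 5.02 kb for FGR H3K27ac. The part of length in these overlaps was not tested.

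**Figure D5:**
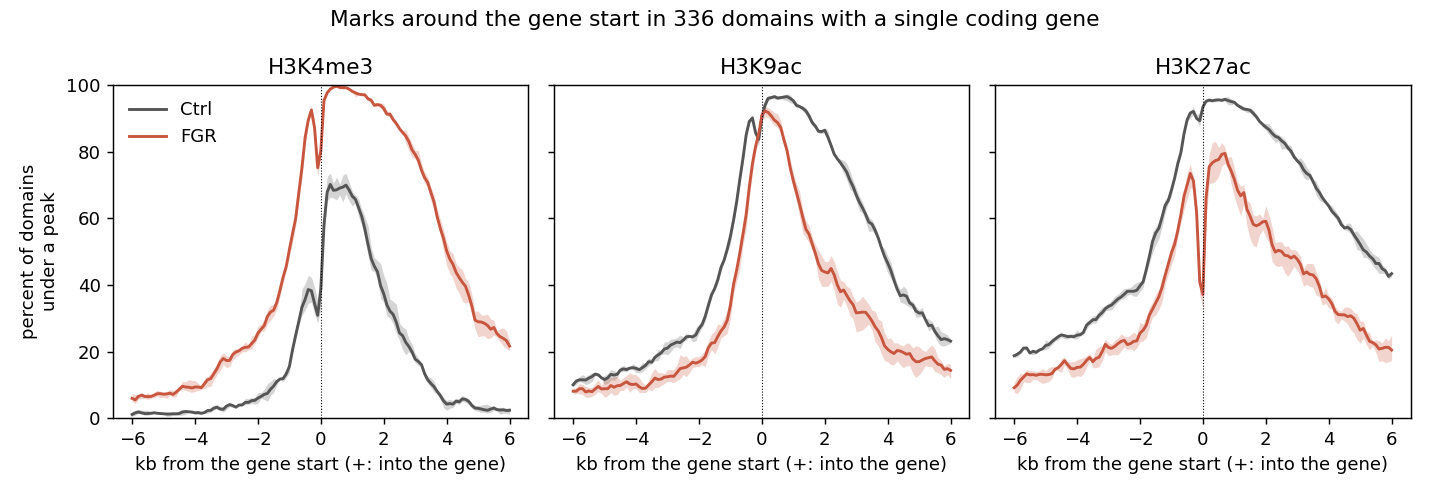
Percent of the 336 domains with a single coding gene that lie under a called peak at each distance from the gene start (horizontal axis, kb, positive into the gene), with the mean of the libraries as a line and their range as a band. At the start itself H3K9ac stands near 90% in both groups, and the FGR line falls away from the Ctrl line upstream and within the gene.

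The domains extended mainly into genes. In the 336 domains with a single coding gene, measured from its most upstream listed start, the median was 0.937 kb upstream and 3.89 kb downstream. The downstream side was longer in 298 (88.7%), and in 282 when the most downstream start was used. Cx3cr1, with 1 listed start, had 3.23 kb upstream and 8.87 kb downstream, and P2ry12 3.23 and 5.19 kb. Psap depended on the start used, with 0.275 and 12.97 kb from the most upstream one and 7.11 and 6.14 kb from the most downstream one.

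H3K9ac at the start itself was alike in the groups in extent, with a peak over it in 90.3% of these domains in Ctrl (88.7% to 92.3% by library) and 90.9% in FGR (89.3% to 92.0%). At 1 kb into the gene it was 95.2% and 71.3%, at 2 kb 86.4% and 43.9%, and at 3 kb 67.0% and 31.6%. FGR H3K9ac covered 68.3% of the upstream bases and 53.4% of the downstream bases of these domains, against 87.8% and 87.5% in Ctrl. The share without FGR H3K9ac was thus larger on the downstream side, which is also the longer one. By distance, FGR was lower upstream as well. At 1 kb upstream H3K9ac was at 54.6% in Ctrl and 33.9% in FGR. At 0.5 kb it was 85.0% and 61.1% upstream, and 96.1% and 88.7% into the gene. The part of distance from the start in the shares of the 2 sides was not tested.

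H3K27ac differed in another way. A peak lay over the start in 93.4% of these domains in Ctrl and in 37.1% in FGR, and 1 kb into the gene in 94.8% and 71.7%. In FGR, H3K27ac stood at 73.4% at 0.4 kb upstream of the start. H3K4me3 had a shallower dip in FGR, from 92.5% at 0.3 kb upstream to 75.1% at 0.1 kb upstream, with 80.3% at the start and 98.1% at 1 kb. In Ctrl it dipped as well, from 38.6% at 0.4 kb upstream to 30.9% at 0.1 kb upstream, with 38.8% at the start and 66.6% at 1 kb. The narrowest peaks differed between the lists, as given above, and the part of that in these profiles was not tested.

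Domains were also divided by the promoter of their gene, with 1 start per gene, which placed 367 domains, and 5 that held genes of both classes count in each. In 110 domains whose promoter had an observed to expected CpG ratio of 0.6 or less, like those of Cx3cr1 and P2ry12 shown above, FGR H3K9ac coverage had a median of 50.4%, with 90 lower and 4 higher than Ctrl. In 262 domains with a ratio above 0.6, like those of Sall1 and Psap, the median was 62.8%, with 190 lower and 19 higher. Among all 546 domains, 77.5% were lower and 6.59% higher for H3K9ac, and the shares of both classes are not far from these. Ctrl H3K9ac medians were alike, at 91.5% and 91.3%, and Ctrl H3K4me3 medians were 36.4% and 38.8%. The difference between these classes was not tested.

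The 67 domains without a listed start lay mostly inside genes, with 55 overlapping a coding gene body. The nearest listed coding start was a median of 32.6 kb away, within 5 kb for 15 and beyond 50 kb for 25. Ctrl H3K4me3 covered 30.7% ± 2.96 of their bases, against 38.5% ± 2.38 in domains with a coding start. H3K9ac covered 86.9% ± 0.189 in Ctrl and 49.3% ± 2.77 in FGR, and H3K27ac 93.5% ± 0.300 and 68.5% ± 2.56 (n = 4 each). By limma, 57 of the 67 were lower for H3K9ac (85.1%) and 6 higher (8.96%), where 77.5% of all domains were lower and 6.59% higher. For H3K27ac, 56 of 66 tested were lower (84.8%) and 1 higher, where 93.9% of all domains tested were lower. The median differences were −40.5 and −18.7 points. Quantile normalization gave 42 lower and 11 higher for H3K9ac, and 12 lower and 17 higher for H3K27ac. One of them lay in P2ry12 and Med12l, 4.78 kb from the start of P2ry13, another purinergic receptor gene, and its H3K9ac went from 80.3% ± 4.65 to 12.1% ± 3.08 (n = 4, limma adjusted p = 9.93e-07). These stretches away from starts thus carried both acetylation marks in Ctrl.

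H3K9me3 was nearly absent from the domains. The broad lists of replicates 1 to 3 covered 1.08%, 0.640% and 0.462% of domain bases in Ctrl and 0.201%, 0.189% and 0.190% in FGR. In the shorter shared intervals of 500 bp to 4 kb the means were 0.890% in Ctrl and 0.226% in FGR, so near absence was not particular to the domains. The Ctrl lists held 345501 to 492938 peaks over 286.8 to 478.5 Mb of the genome, with a lowest −log10 q of 0, and the FGR lists 15522 to 22903 peaks over 9.84 to 15.04 Mb, with a lowest −log10 q of 1.01 to 1.05. The Ctrl and FGR lists thus ended at unlike thresholds, and the part of this in the shares and calls was not tested beyond an alternative that kept only peaks with q of 0.05 or less, under which the lower call was lost. Only 26 domains had a peak in at least 2 of these libraries. By limma, 1 was higher in FGR, that of Rn18s-rs5, where 4.37% of the 435 intervals tested were higher, and 1 was lower, where 2.07% were lower. The lower one, on X at the noncoding gene G530011O06Rik (chrX:169974525-169981575), had 62.6%, 43.8% and 65.9% in Ctrl and 0 in the 3 FGR libraries (limma adjusted p = 0.0340). Its call was lost with the replicate number as a block and without any 1 of the FGR libraries. The count of lower domains was 3, 6 and 9 without Ctrl replicates 1, 2 and 3.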

How the data were processed

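The 32 deposited peak lists, 4 libraries for each of 4 marks in each group, hold for each peak a position, a score, a fold enrichment and −log10 p and q, all as the authors' peak caller wrote them. Per the submitters' processing notes, the tools included MACS2 2.2.7.1, Bowtie2 2.4.5, Trim Galore 0.6.5, DiffBind 3.12.0 and SAMtools 1.3.1, and the build is mm10. Options, and the control for calling, are not given in the sources here. Sequencing depth is unknown. The notes and the lists do not say that replicates were pooled, and identical peaks made up at most 0.543% between replicates.

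Coverage, the percent of an interval's bases under peaks, was compared over shared FGR H3K4me3 intervals of at least 500 bp with a peak of the mark in at least 2 libraries. limma 3.58.1 (R 4.3.3, eBayes with trend, two-sided, Benjamini-Hochberg over all intervals tested, threshold 0.05) gave the tests and was tested on simulated data. H3K9me3 used the broad lists of replicates 1 to 3. Other steps used Python 3.11.15, numpy 2.4.6, pandas 2.3.3 and matplotlib 3.10.9. Gene starts and promoter sequences came from a RefSeq table of GRCm38.p6, the build of mm10, with 17492 of 21887 coding genes and no gene of chromosome 18.

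Domains and gene lists were chosen with earlier results of these data known. The genes named are those of the 12 longest domains, the neighbours of the 4 kb limit, the 5 highest and 5 lowest in Ctrl H3K4me3, the 5 of lowest p in each direction for each mark and up to 4 with the longest domains of each gene list. Other genes named were chosen after their values were seen. Results for a few genes that these rules select are not reported here.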

Additional observations from a re-analysis of the deposited data

Results flagged for a closer look

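Single libraries that stood apart from the other 3 of their group were looked for in 54 groups of 4 libraries, and 10 groups had one. For independent values without a limit, chance sets about 1 in 20 apart. The groups here overlap, since all domains include the classes and the single domains, and coverage has an upper limit. The count therefore cannot be set against that rate. Over all domains, H3K27ac coverage of Ctrl replicate 3 was 90.8%, the others being 91.8% to 91.9%. That of FGR replicate 4 was 59.4%, the others being 64.99% to 65.9%. In domains with a coding start, Ctrl replicate 3 had 91.0% H3K27ac coverage against 92.1% to 92.2%, and in domains without a start Ctrl replicate 2 had 94.0% against 93.3% to 93.4%.

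At the Cttnbp2nl domain, FGR replicate 4 had 84.4% H3K27ac coverage against 90.2% to 90.4%, and Ctrl replicate 2 had 96.1% H3K9ac coverage where the others were at 100%. At Zeb2, FGR replicate 2 stood above the others for H3K4me3 (98.4% against 97.3% to 97.5%) and for H3K9ac (60.4% against 45.9% to 47.8%). At Cx3cr1, Ctrl replicate 1 had 98.8% H3K27ac coverage where the others were at 100%. At the domain of Abi3 and Gngt2, FGR replicate 1 had 94.3% H3K4me3 coverage against 99.9% to 100%.

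The narrow H3K9me3 lists of replicate 4 entered none of the comparisons above. In FGR replicate 4 such a list had a peak in 1 domain, that of Rn18s-rs5, covering 96.3% of it, and in Ctrl replicate 4 that domain was at 0.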

How the results depend on the processing

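The number of domains was 353 with a joining gap of 200 bp, 1192 with a minimum of 3 kb, 275 with one of 5 kb, and 344 with FGR H3K4me3 lists of equal length, an alternative chosen after seeing the data. It ran from 557 to 627 with 1 FGR library left out. Ctrl H3K4me3 coverage of the domains was 42.4% with a gap of 200 bp, 33.2% with one of 1000 bp, 34.0% with presence in 3 of 4 FGR libraries, 29.3% with a stricter peak threshold and 41.8% with Ctrl peaks joined over 500 bp. The cause of these changes was not tested. Among H3K9ac and H3K27ac calls, quantile normalization gave the largest change. For H3K9ac, 46.9% of domains were lower and 22.0% higher. For H3K27ac, 14.8% were lower and 18.1% higher, and with joined peaks 52.2% were lower.

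Under quantile normalization some of the 12 longest domains turned to a positive difference, in percentage points. For H3K9ac these were Abi3 and Gngt2 (2.87), C1qb and C1qc (1.19) and Zfp710 (14.3). For H3K27ac they were Cttnbp2nl (1.86), Zeb2 (4.03), Psap (0.701), Abi3 and Gngt2 (2.37), C1qb and C1qc (15.6), Zfp710 (1.48) and Inpp5d (4.91). Zfp710 did not pass for H3K9ac with joined peaks (−9.73) or without the libraries numbered 4 (−11.0), the latter chosen after seeing the data. Of 439 values of single domains under the alternatives, 413 kept direction and side of the threshold, 10 reversed, 10 lost the threshold and 6 moved.

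The single domains higher for H3K27ac, and higher or lower for H3K9me3, were unstable as shares of domains. For H3K27ac higher the share was 0 with a gap of 200 bp, a stricter threshold, lists of equal length, joined peaks or without the libraries numbered 4. It was 0.287% with a gap of 1000 bp, 0.0839% at 3 kb and 0.364% at 5 kb, and 0 to 0.183% with 1 library left out. For H3K9me3 lower it was 0.283% with a gap of 200 bp, 0.0839% at 3 kb and 0.364% at 5 kb, and 0 with presence in 3 of 4 libraries, quantile normalization, a broad peak q of 0.05 or less or the narrow lists of replicate 4 added. With 1 library left out it ran from 0 to 1.65%. For H3K9me3 higher it was 0 with a gap of 200 bp or a stricter threshold, 0.0839% at 3 kb and 0.364% at 5 kb. H3K9me3 over all intervals could not be fitted.

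With the replicate number as a block, the H3K9ac counts were 411 lower and 32 higher, the H3K27ac counts 501 and 1, and H3K9me3 had 1 higher and a share of 0 lower. Whether the numbers pair the samples is not known. Same-numbered deviations correlated at 0.000742 to 0.0706 over intervals, and those of unlike number at −0.105 to 0.0460. In H3K9ac not every library correlated best with its own number. Correlations as small as these cannot settle the question. Depth is unknown, so it cannot be said which absent peaks reflect few reads.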
